A study of Homo sapiens with 6 samples.

Results

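Ridaforolimus-resistant MDA-MB-231 cells were compared with the parental cells they came from, using the 4 of the 6 libraries of the series that the labels assign to these groups, 2 per group. The other 2 libraries came from everolimus-resistant cells held in 20 µM everolimus and were not part of the contrast. They entered the estimate of the spread between libraries and the normalisation. They also entered the filters on level that set which genes were tested, named, placed in windows or taken as neighbours. MDA-MB-231 is an established human breast cancer line of the triple-negative type. The parental group, labelled wild type, has DMSO in its treatment field, while the treatment protocol gives it no drug. The ridaforolimus-resistant group is a single derivative line that had been grown in 30 µM ridaforolimus without a break over several months before its RNA was taken. All lines grew in DMEM with fetal bovine serum and penicillin and streptomycin. Because resistance, the drug still present and the drift of 1 derivative in culture come together in that group, their parts in any difference cannot be told apart. The labels do not say whether the 2 libraries of a group came from separate cultures, so p-values measure the spread between these libraries, which may be technical.

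Ridaforolimus is an analog of rapamycin. Such drugs bind the small immunophilin FKBP12, and the complex docks on the mTOR kinase and blocks its complex mTORC1, which drives protein and ribosome synthesis, nutrient use and growth. Triple-negative cells lack the oestrogen and progesterone receptors and amplified HER2. MDA-MB-231 cells in particular have a spindle-shaped, mesenchymal form, move readily and secrete matrix proteins, proteases and cytokines. The study asked which changes of expression go with acquired resistance to mTOR inhibitors, with PMEPA1, PI3K/AKT and signalling by TGF-beta in its title.

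The libraries of these groups held 13512908 and 14524155 counts in parental cells and 13134567 and 13451139 in ridaforolimus-resistant cells. Levels below are CPM, counts scaled to the normalised library size, which do not correct for gene length, so they compare a gene between libraries and not genes with each other. A CPM of 0 stands for 0 counts. Over a group such a count allows up to 3 counts, or 0.110 CPM in parental and 0.112 CPM in resistant cells, and this limit covers counting error only. Markers of the mesenchymal form known for this line were present. The 13 mesenchymal markers summed to 3441 and 3116 CPM in parental and 3967 and 8078 CPM in resistant libraries, with TWIST1 and TWIST2 at 0. ESR1 lay at or below 0.916 CPM and PGR at or below 0.146 CPM in all 4 libraries, and CDKN2A and CDKN2B, which this line is known to have lost, had 0 counts in each. Of the 10 leukocyte markers CD3E and MS4A1 were at 0 and the sum stayed between 1.07 and 3.13 CPM, while the 9 fibroblast markers summed to between 7.62 and 16.6 CPM with LUM at 0. The 2 resistant libraries resembled each other less (Pearson r of log2 CPM 0.954 across genes) than the 2 parental ones (0.984), across genes that are not independent replicates.

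Of 21223 genes tested 68, or 0.32%, differed between the lines with an adjusted p under 0.05 (edgeR's quasi-likelihood test, Benjamini-Hochberg adjustment over all genes tested), and the words rose and fell below are kept for genes that passed it. On the autosomes 42 of 19614 genes passed, which is 0.214%. Of these 18 were higher in the resistant line (0.0918%) and 24 lower (0.122%). Of the 38 that the naming rule took up, 17 rose and 21 fell, and DESeq2 called all 38. DESeq2 called more genes in all, 3.07% of the 18754 with an adjusted p (1.55% higher and 1.51% lower), and its calls are given below only as those of another tool. The named genes are grouped below by hand, by what their proteins are known to do, and these groups were not tested. The calls depended on single libraries: without parental replicate 1 or parental replicate 2 the only gene to pass was the non-coding CASC19, and without ridaforolimus replicate 2 the genes to pass were TNS4 and AREG. Leaving out everolimus replicate 1 or 2, which are not part of the contrast, instead raised the number of genes that passed. Every gene called with all libraries then still passed. Without ridaforolimus replicate 1 the autosomal calls were again 42, but 21 of them were shared with the 42 from all libraries. Fold changes are log2 values of resistant over parental cells, ± the standard error of the fit.

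**Figure D1:**
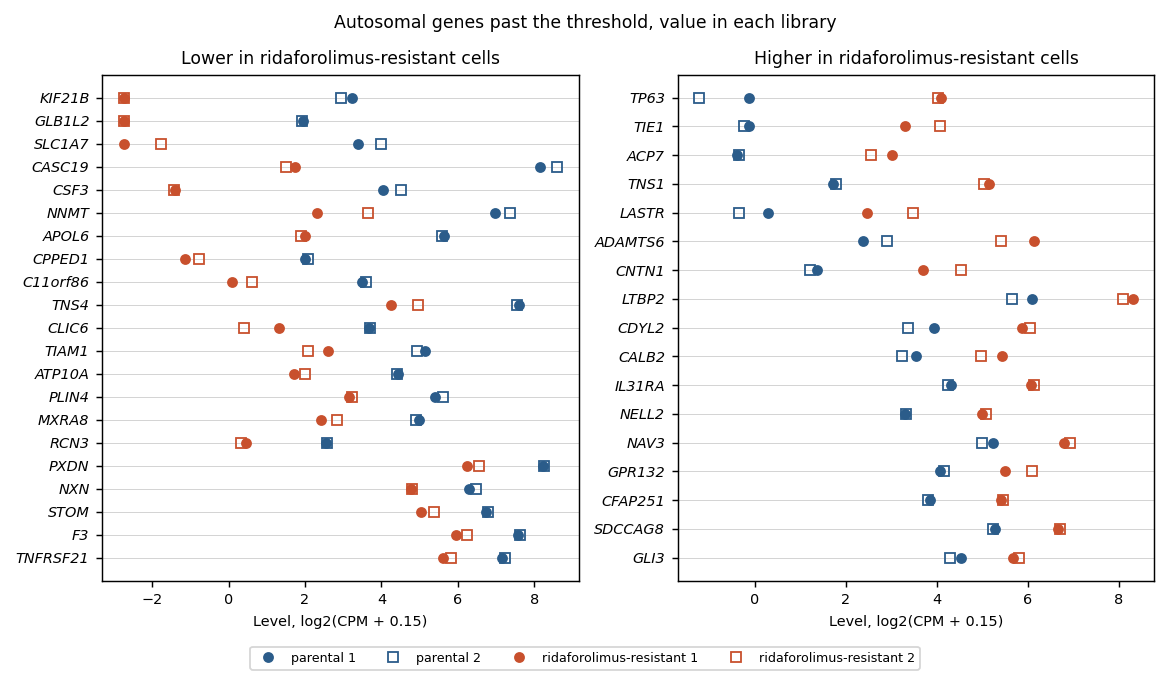
Level of each named autosomal gene past the threshold in the 4 libraries, as log2 of CPM plus 0.15, with parental libraries in blue and ridaforolimus-resistant ones in orange; circles are replicate 1 and open squares replicate 2. In no row do the libraries of the lines overlap, which also held for 49.4% of all genes tested. The 2 resistant libraries of some genes, such as NNMT, CNTN1 and ADAMTS6, lie well apart. KIF21B and GLB1L2 are at 0 counts in both resistant libraries.

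Among genes of secreted, matrix and surface proteins LTBP2, ADAMTS6, NELL2 and CNTN1 rose, and PXDN, MXRA8 and RCN3 fell. LTBP2 encodes a matrix protein that binds fibrillin microfibrils. It measured 68.2 and 49.9 CPM in parental and 315 and 270 CPM in resistant libraries (2.31 ± 0.22, adjusted p = 0.0109). ADAMTS6, a secreted metalloprotease of the extracellular matrix, measured 5.04 and 7.40 against 69.9 and 42.3 CPM (3.17 ± 0.39, adjusted p = 0.0211). NELL2, a secreted glycoprotein of nerve cells, rose from 9.70 and 9.93 to 31.8 and 33.8 CPM (1.74 ± 0.22, adjusted p = 0.0211). CNTN1, a membrane-anchored contactin that joins nerve cells, measured 2.44 and 2.18 against 12.8 and 22.9 CPM (2.95 ± 0.37). In these 4, picked because they passed, both resistant libraries lay above every parental one, as did 25.1% of all genes tested. The 2 resistant libraries of CNTN1 and ADAMTS6 themselves lay well apart. PXDN, the peroxidase that crosslinks collagen IV of basement membranes, fell from 298 and 304 to 75.2 and 94.0 CPM (-1.83 ± 0.21, adjusted p = 0.0158). MXRA8, an adhesion protein of the immunoglobulin type, measured 31.3 and 29.8 against 5.18 and 7.01 CPM (-2.32 ± 0.24). RCN3, a calcium-binding protein of the secretory pathway that assists collagen production, fell from 5.73 and 5.85 to 1.22 and 1.10 CPM (-2.31 ± 0.32, adjusted p = 0.0321).

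The related gene lists did not follow these members as a whole. Of 21 tested genes of latent TGF-beta binding proteins, fibrillins and elastic fibres 14 lay above 0 and 7 below, with a median of 0.31 beside 0.015 over all genes tested, of which 51.3% lay above 0. LTBP2 was the 1 gene of this list to pass. The next lowest p-values belonged to ADAMTSL1 at 1.49, LOXL1, a crosslinker of elastin, at 0.86 and EMILIN2 at -0.79. The median of this list was -0.24 in the first resistant library and 0.58 in the second, relative to the parental mean. Of 22 matrix metalloproteases, ADAMTS enzymes and their TIMP inhibitors 15 lay above 0 (median 0.35), ADAMTS6 alone passed, and 6 were higher and 3 lower at an unadjusted p under 0.05, where 7.35% and 7.17% of all genes were. ADAMTS9 measured 1.45 and 0.493 against 4.50 and 15.5 CPM (3.37, adjusted p = 0.0918) and the inhibitor TIMP4 14.4 and 11.6 against 2.44 and 1.97 CPM (-2.56, adjusted p = 0.0505). Among 21 collagens 0 passed in edgeR, with 2 higher and 2 lower at an unadjusted p under 0.05, and DESeq2 called 1, COL12A1, at -1.05. Of 24 immunoglobulin and neural adhesion molecules 15 lay above 0 (median 0.39) and CNTN1 alone passed. At an unadjusted p under 0.05 there were 8 higher and 3 lower, and DESeq2 called 2 and 1. LSAMP, which like CNTN1 is anchored to the membrane of neurons, measured 2.37 and 1.48 against 14 and 48.9 CPM (4.03, adjusted p = 0.0542). Its fold change was 2.87 without ridaforolimus replicate 2 and 4.66 without replicate 1.

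Genes that link integrins and the cytoskeleton moved in both directions. The tensins bind the tails of integrins and connect them to actin, but TNS4 is short and lacks the actin-binding part of the others. TNS1 rose from 3.13 and 3.31 to 35.1 and 32.6 CPM (3.39 ± 0.46, adjusted p = 0.029), while TNS4 fell from 194 and 188 to 18.9 and 30.8 CPM (-2.94 ± 0.26, adjusted p = 0.0109). TIAM1, which switches on the GTPase Rac, fell from 35.4 and 30.3 to 5.87 and 4.09 CPM (-2.72 ± 0.27, adjusted p = 0.0109). KIF21B, a kinesin motor of microtubules, measured 9.17 and 7.47 CPM in parental libraries and 0 in both resistant ones, 226 counts against 0. Its level was at least 74.0-fold lower, from a floor of 3 counts over the group. NAV3, a protein that guides microtubules, rose from 37.6 and 31.8 to 111 and 120 CPM (1.74 ± 0.26, adjusted p = 0.0415). None of these groups of libraries overlapped, which by itself is common here: the libraries of the 2 lines did not overlap for 49.4% of all genes tested.

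In the lists of adhesion genes few members passed. Of 28 focal adhesion adaptors and tensins 14 lay above 0 and 14 below (median -0.00), with TNS1 and TNS4 the genes past the threshold in edgeR. At an unadjusted p under 0.05 there were 2 higher and 6 lower, and DESeq2 called 1 and 2. NEDD9, a scaffold of focal adhesions, measured 22 and 17.9 against 3.51 and 6.94 CPM (-1.93, adjusted p = 0.127) and the actin crosslinker FLNA, on chromosome X, 4150 and 3674 against 2443 and 2452 CPM (-0.68, adjusted p = 0.238). Of 19 integrins 0 passed in edgeR, 3 were higher and 1 lower at an unadjusted p under 0.05, and DESeq2 called 1 in each direction, ITGAX at 2.68 and ITGB2 at -1.35. ITGB3 measured 14 and 11.1 against 13.4 and 69.8 CPM, a value set by the second resistant library alone.

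Among genes of receptors, ligands and signalling factors IL31RA, GPR132, TIE1 and GLI3 rose, and CSF3, TNFRSF21 and F3 fell. IL31RA, a receptor of the gp130 cytokine family, rose from 19.6 and 18.7 to 66.5 and 70.1 CPM (1.83 ± 0.19, adjusted p = 0.0113). GPR132, a G protein-coupled receptor, rose from 16.7 and 17.7 to 44.9 and 67.7 CPM (1.71 ± 0.25, adjusted p = 0.0404). TIE1, an orphan receptor tyrosine kinase of vessel walls, measured 0.764 and 0.704 against 9.68 and 16.7 CPM (4.15 ± 0.46). GLI3, a transcription factor at the end of the Hedgehog pathway, rose from 23.1 and 19.4 to 50.8 and 55.3 CPM (1.32 ± 0.20, adjusted p = 0.0421), the smallest change among the named risen genes. In all 4 both resistant libraries lay above both parental ones, as did 25.1% of all genes tested. Among the falls, CSF3, the cytokine that drives neutrophil formation, measured 16.3 and 22.5 CPM against 0.229 and 0.219 CPM (-6.38 ± 0.62). The death receptor TNFRSF21 fell from 141 and 150 to 48.8 and 55.9 CPM (-1.48 ± 0.19, adjusted p = 0.025). Tissue factor F3, the membrane receptor that starts coagulation, measured 189 and 197 against 61.1 and 75.1 CPM (-1.50 ± 0.19).

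Apart from TIE1 no endothelial marker passed. The 10 endothelial markers summed to 80.3 and 62.6 CPM in parental and 47.8 and 62.1 CPM in resistant libraries, with ERG at 0 and CDH5 at or below 0.382 CPM. PECAM1 measured 11.5 and 7.68 against 0.457 and 5.33 CPM. Among 32 tested receptor tyrosine kinases 20 lay above 0 (median 0.20) and TIE1 alone passed. ROR1 measured 18.3 and 28.0 against 4.88 and 2.41 CPM (-2.67, adjusted p = 0.0728), and ERBB4 0.611 and 1.06 against 2.97 and 3.14 CPM (1.86, adjusted p = 0.134). Of 36 colony-stimulating factors, interleukins and their receptors CSF3 was the 1 to pass, while 5 were higher and 8 lower at an unadjusted p under 0.05. IL1A measured 6.11 and 5.07 against 13.2 and 34.3 CPM (2.09, adjusted p = 0.101). IL7R measured 2.29 and 1.97 against 0.229 and 0 CPM (-4.14, adjusted p = 0.115). Of 11 chemokines and receptors 0 passed in edgeR, at an unadjusted p under 0.05 or in DESeq2 or limma-voom, and CXCL8, a neutrophil attractant, measured 24.5 and 26.7 against 42.3 and 129 CPM. Among 30 ligands of the EGF, FGF, PDGF, VEGF and IGF families 22 lay above 0 (median 0.30), and 0 passed in edgeR. At an unadjusted p under 0.05 there were 5 higher and 4 lower, and DESeq2 called 1 and 3. PGF, a ligand of VEGF receptors, measured 5.50 and 4.86 against 1.22 and 1.02 CPM (-2.20, adjusted p = 0.0518). AREG, an EGF receptor ligand, measured 215 and 195 against 17.1 and 71.3 CPM (-2.21, adjusted p = 0.141) and had -3.57 (adjusted p = 0.028) without ridaforolimus replicate 2.

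Among genes of epithelial and basal identity the basal transcription factor TP63 rose, and several keratins and junction genes were lower without passing. TP63, the p53 relative that maintains basal layers of stratified epithelia, rose from 0.764 and 0.282 to 16.8 and 16.1 CPM (4.97 ± 0.46, adjusted p = 0.0109). Both resistant libraries lay above the parental ones, as did 25.1% of all genes tested, and without parental replicate 1 the fold change was 5.82. KRT5 and KRT14, keratins of the same basal layers, were among the 12 of 34 listed genes too low to test. Of the 22 tested keratins and basal factors 10 lay above 0 and 12 below (median -0.23), and 3 were higher and 9 lower at an unadjusted p under 0.05. KRT6A measured 2.22 and 1.27 CPM in parental libraries and 0 in both resistant ones (adjusted p = 0.0542), and the desmosomal PKP3 68.8 and 81.6 against 35.3 and 31.9 CPM (-1.16, adjusted p = 0.0756). LAMB3, a laminin chain of epithelial basement membranes, measured 586 and 372 against 1180 and 1462 CPM (1.46, adjusted p = 0.0706). Of the 10 tested epithelial markers 7 lay below 0 (median -0.32). Of these, 4 were lower at an unadjusted p under 0.05, and 0 passed in edgeR and 3 in DESeq2, with KRT18 at -0.79, CLDN7 at -1.42 and SPINT1 at -2.48. All 9 tested mesenchymal markers lay above 0 (median 0.60), with 0 past the threshold in edgeR, 3 at an unadjusted p under 0.05 and CD44 called by DESeq2. Their median was 0.20 in the first resistant library and 0.82 in the second, relative to the parental mean, where the parental libraries stood at 0.13 and -0.13. In 3 of the 9 both resistant libraries lay above both parental ones, as did 25.1% of all genes tested. CD44 measured 174 and 134 against 301 and 425 CPM (1.24, adjusted p = 0.155) and vimentin (VIM) 302 and 323 against 483 and 646 CPM (0.85, adjusted p = 0.24). FN1, the gene of fibronectin, measured 1363 and 1081 CPM against 1204 and 5286 CPM, and its 1.41 became -0.01 without ridaforolimus replicate 2. GATA3, a luminal transcription factor, measured 3.90 and 4.37 against 0.915 and 0.95 CPM (-2.14, adjusted p = 0.0706).

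Among genes of metabolism, membranes and transport those that fell included NNMT, SLC1A7, GLB1L2 and CLIC6. NNMT, which methylates nicotinamide and so uses methyl donors, fell from 124 and 164 to 4.8 and 12.5 CPM (-4.06 ± 0.49, adjusted p = 0.0197). Without ridaforolimus replicate 2 its fold change was -4.90 (adjusted p = 0.0506). SLC1A7, a glutamate transporter, measured 10.2 and 15.6 CPM against 0 and 0.146 CPM, 356 counts against 2, a ratio of 175 with a counting interval of 48.1 to 1450. The 2 resistant counts were both in ridaforolimus replicate 2, so no fold change is given without single libraries. GLB1L2, a relative of beta-galactosidase, measured 3.74 and 3.66 CPM against 0 in both resistant libraries, 101 counts against 0, and was at least 33.1-fold lower. These 2 and KIF21B were the genes closest to complete loss among the named autosomal falls. CLIC6, a chloride channel protein, fell from 12.5 and 12.7 to 2.36 and 1.17 CPM (-2.84 ± 0.37, adjusted p = 0.025), and had -3.44 without ridaforolimus replicate 1. The flippase ATP10A, which moves phospholipids between membrane leaflets, measured 21.3 and 20.9 against 3.13 and 3.87 CPM (-2.59 ± 0.25). PLIN4, a coat protein of lipid droplets, measured 41.9 and 48.4 against 8.77 and 9.21 CPM (-2.33 ± 0.29). APOL6, an intracellular apolipoprotein L, measured 49.2 and 47.9 against 3.89 and 3.58 CPM (-3.70 ± 0.32). The parental libraries of these 3 genes were close to each other, as were the resistant ones. In these 3, picked because they passed, the resistant libraries lay below the parental ones, as did 24.3% of all genes tested.

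Other named genes that fell were STOM, NXN, CPPED1 and C11orf86. The membrane scaffold protein STOM fell from 107 and 110 to 32.4 and 41.4 CPM (-1.56 ± 0.23, adjusted p = 0.0453). NXN, a redoxin that acts on WNT signalling, fell from 78.0 and 88.5 to 27.1 and 27.5 CPM (-1.61 ± 0.18, adjusted p = 0.0148). The phosphatase CPPED1 measured 3.82 and 4.09 against 0.305 and 0.438 CPM, and C11orf86 11.2 and 12.0 against 0.915 and 1.39 CPM (adjusted p = 0.0313 and 0.025). Among the rises outside the groups above, CALB2, the calcium buffer calretinin, went from 11.5 and 9.23 to 43.1 and 31.1 CPM (1.84 ± 0.25, adjusted p = 0.0313). CDYL2, a chromodomain protein, measured 15.3 and 10.2 against 58.5 and 66.0 CPM (2.29 ± 0.25), and the phosphatase ACP7 0.611 and 0.634 against 7.93 and 5.70 CPM (3.43 ± 0.41, adjusted p = 0.0192). SDCCAG8, a centrosome protein, went from 38.8 and 37.5 to 101 and 104 CPM (1.43 ± 0.18, adjusted p = 0.0211), and CFAP251, a protein of cilia and flagella, from 14.3 and 13.9 to 42.2 and 43.4 CPM (1.60 ± 0.21, adjusted p = 0.025). CFAP251 overlaps PSMD9 on its own strand. Since the strand setting of the counting is not given in the sources used here, reads of overlapping genes may not have been told apart.

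Non-coding RNAs were among the extremes. CASC19, on chromosome 8 at 127072694 to 127227541, measured 283 and 386 CPM in parental and 3.2 and 2.7 CPM in resistant cells (-6.82 ± 0.45, adjusted p = 0.00539). LASTR, a long non-coding RNA of chromosome 10, went from 1.07 and 0.634 to 5.41 and 11 CPM (3.26 ± 0.48, adjusted p = 0.0421), and had 2.67 without ridaforolimus replicate 2 (adjusted p = 0.158). The neighbours of LASTR within 500 kb included AKR1C4 at 3.53, AKR1C3 at 2.10 and the non-coding LINC02561 at 2.74, none past the threshold. The aldo-keto reductases of the AKR1C family, which reduce steroids and aldehydes, are near-identical, so the split of reads between them is uncertain. The 4 called autosomal genes without a naming-rule symbol were the non-coding LINC02575, LINC03033, NUTM2B-AS1 and ENSG00000258976. LINC03033 measured 46.5 and 64.4 against 9.07 and 15.2 CPM, and NUTM2B-AS1 13.6 and 14.6 against 1.37 and 2.34 CPM. LINC02575 measured 2.22 and 2.68 against 0.0762 and 0 CPM, 67 counts against 1.

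**Figure D2:**
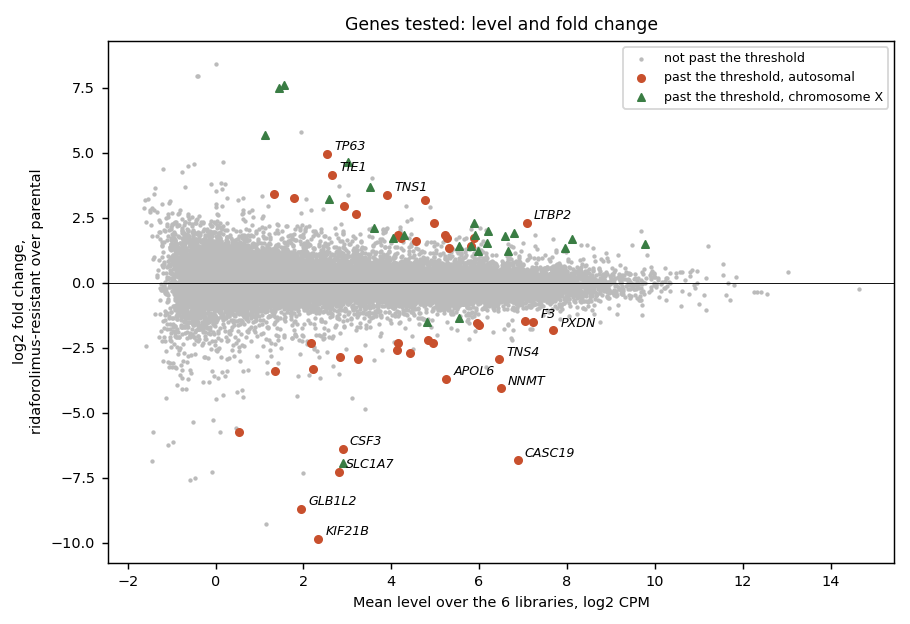
Fitted log2 fold change of resistant over parental cells against the mean level over the 6 libraries (log2 CPM) for the genes tested; grey points did not pass the threshold, orange points are autosomal and green triangles chromosome X genes that did. Genes such as PXDN and F3 pass at fold changes near -1.5 to -1.8 where levels are high, while rarer genes such as TIE1 and TP63 pass at changes above 4.

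In the pathway that ridaforolimus targets no gene passed. Of 58 genes of PI3K, AKT and mTOR signalling 28 lay above 0 and 30 below (median -0.01). In edgeR 0 passed and in limma-voom 0, while 8 were higher and 4 lower at an unadjusted p under 0.05 and DESeq2 called 5, all higher. These included EIF4B, a factor of translation initiation, at 308 and 357 against 626 and 669 CPM (0.96), the gamma subunit gene PIK3CG at 3.36 and 5.42 against 16.5 and 15.9 CPM (1.88) and PDCD4. MTOR measured 148 and 142 against 135 and 96.8 CPM (-0.32 ± 0.23, adjusted p = 0.552), and FKBP1A, the gene of FKBP12, 209 and 183 against 188 and 214 CPM (0.04 ± 0.20, adjusted p = 0.958). The libraries of the lines overlapped for FKBP1A and not for MTOR. Of 13 FK506-binding proteins 0 passed in edgeR, 2 were higher and 1 lower at an unadjusted p under 0.05, and DESeq2 called 1 each way: FKBP5, the partner of HSP90 in steroid receptor complexes, at 321 and 326 against 108 and 158 CPM (-1.28), and the collagen chaperone FKBP10 at 15.2 and 8.87 against 26.8 and 44.8 CPM (1.57). PMEPA1, which the title names, measured 23.2 and 13.3 against 50.2 and 47.6 CPM (1.42 ± 0.32, adjusted p = 0.117). Its fold change ranged from 1.07 without parental replicate 2 to 1.87 without parental replicate 1. Of 45 TGF-beta, activin and BMP ligands, receptors and SMADs 25 lay above 0 (median 0.14) and 0 passed in edgeR, against 7 higher and 3 lower at an unadjusted p under 0.05 and 3 calls by DESeq2, PMEPA1 among them. INHBB, an activin subunit, measured 8.71 and 12.7 against 1.37 and 1.61 CPM (-2.84), and the activin and Nodal receptor ACVR1C 0.458 and 0.704 against 2.29 and 4.16 CPM (2.45). Of 23 tested ABC drug transporters 0 passed in edgeR or DESeq2, 2 were higher and 1 lower at an unadjusted p under 0.05, and ABCB1 was too low to test.

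Processes downstream of mTORC1 were described by their medians, beside 0.015 over all genes tested. In each list below with 0 calls by edgeR, limma-voom called 0 as well. Of 74 autosomal genes of nuclear-encoded oxidative phosphorylation 66 lay below 0 (median -0.31), and in 52 both resistant libraries lay below both parental ones, as did 24.3% of all genes tested. None passed in edgeR, 12 were lower at an unadjusted p under 0.05 and DESeq2 called 1, NDUFB9, at 35.4 and 30.0 against 15.8 and 13.4 CPM (-1.16). The other members with the lowest p-values were ATP5PF at -0.89, NDUFA3 at -0.77 and NDUFV3 at -0.62. This list was lower in both resistant libraries, at -0.22 and -0.41 relative to the parental mean, where the parental libraries differed from it by 0.01. The 72 autosomal ribosomal protein genes of the cytosol went the other way, with 50 above 0 (median 0.16), 7 higher at an unadjusted p under 0.05 and 0 past the threshold in edgeR or DESeq2. RPL7A measured 881 and 1082 against 1448 and 1476 CPM (0.58) and RPL22 54.0 and 62.2 against 88.0 and 80.8 CPM (0.54). Of 40 ribosome biogenesis genes 35 lay below 0 (median -0.39), 6 of them at an unadjusted p under 0.05 and 0 past the threshold in edgeR or DESeq2.

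Several lists differed between the 2 resistant libraries more than between the lines. The median of ribosome biogenesis was -0.08 in the first and -0.70 in the second resistant library. For 34 genes of serine and amino-acid synthesis and other ATF4 targets, of which 31 lay below 0 (median -0.61), these medians were -0.14 and -1.99. For 43 mitotic genes (35 below 0, median -0.31) they were 0.15 and -0.83, and the parental libraries stood at -0.24 and 0.24. For 38 glycolytic and hypoxia-inducible genes (30 above 0, median 0.38) they were 0.01 and 0.58. In these 3 lists 0 genes passed in edgeR. At an unadjusted p under 0.05 the ATF4 list had 6 lower, the mitotic list 1 lower and the glycolytic list 5 higher and 2 lower. DESeq2 called 0 of the first, 1 of the second (CDC25B at -0.82) and 3 of the third. The collagen prolyl hydroxylase P4HA1 measured 104 and 63.9 against 173 and 435 CPM (1.86), and the hypoxia factor gene EPAS1 290 and 204 against 55.7 and 89.6 CPM (-1.76). MKI67, a marker of dividing cells, measured 845 and 954 against 720 and 418 CPM (-0.66).

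**Figure D3:**
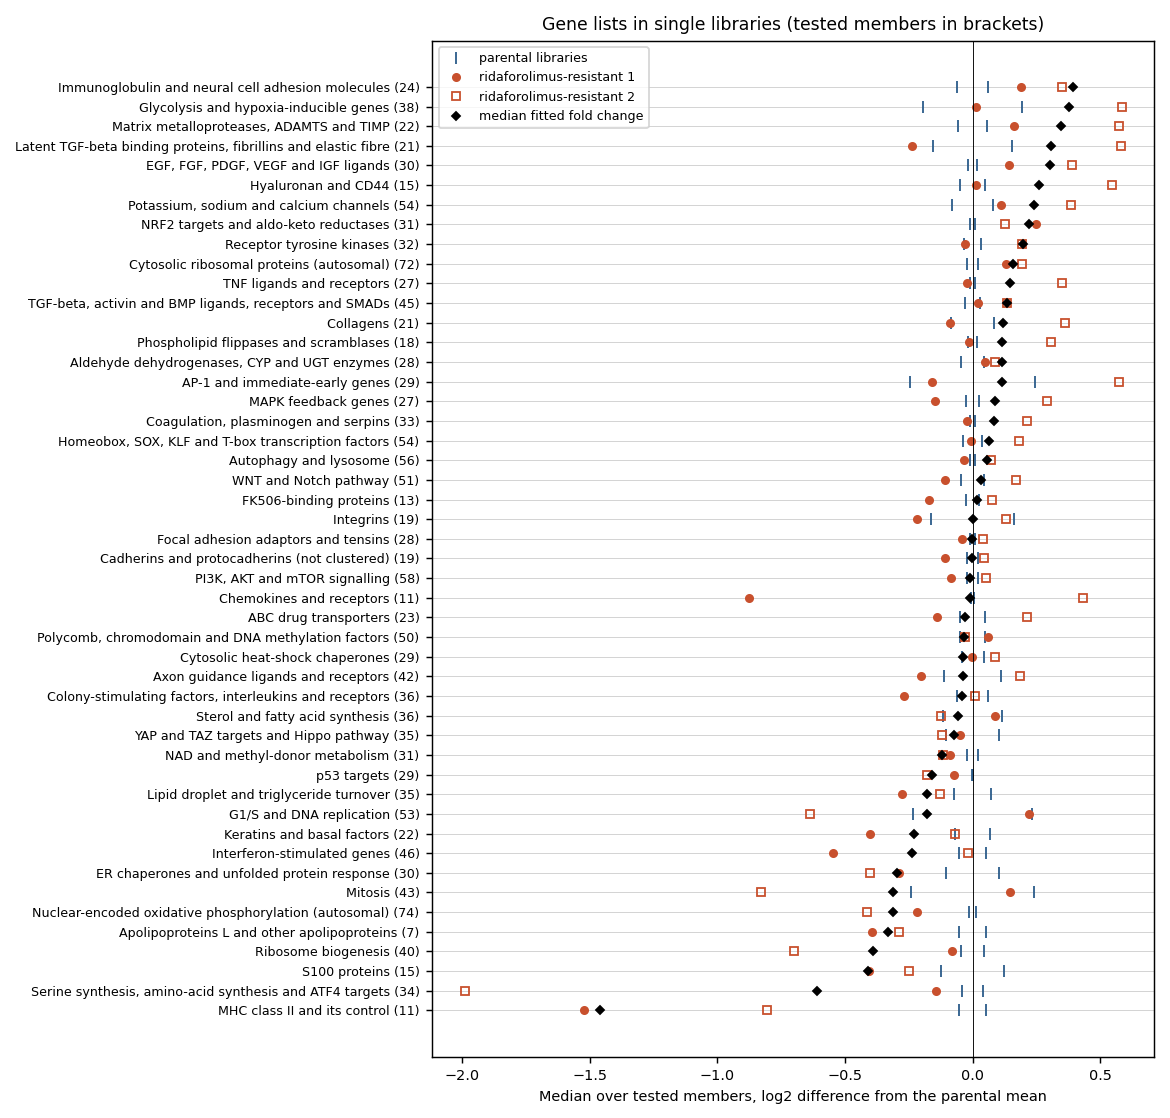
Median log2 difference from the parental mean over the tested members of 48 of the 49 pathway lists, by library: blue ticks are the parental libraries, the filled circle and the open square ridaforolimus-resistant replicates 1 and 2, and the black diamond the median fitted fold change. MHC class II and oxidative phosphorylation are lower in both resistant libraries, while the list of ATF4 targets (-0.14 and -1.99) and mitosis (0.15 and -0.83) differ between them.

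The list with the lowest median was that of MHC class II, the molecules that present extracellular peptides to T helper cells. Of its 11 tested genes 10 lay below 0 (median -1.46), 6 at an unadjusted p under 0.05, and 0 passed in edgeR and 3 in DESeq2. CIITA, the master regulator of the class, measured 15.1 and 13.5 against 4.88 and 4.46 CPM (-1.62, adjusted p = 0.0984). HLA-DRA measured 4.58 and 3.45 against 0.534 and 0.804 CPM (-2.57, adjusted p = 0.0764), and the invariant chain CD74 14 and 7.89 against 2.74 and 2.26 CPM (-2.12, adjusted p = 0.173). In each of these 3 genes the resistant libraries lay below both parental ones, as did 24.3% of all genes tested. Reads of HLA genes may be shared between near-identical copies. Of 46 interferon-stimulated genes 31 lay below 0 (median -0.24), 3 were higher and 9 lower at an unadjusted p under 0.05, and 0 passed in edgeR and 3 in DESeq2. Among those 3 were ISG15, at 33.5 and 38.9 against 13 and 11 CPM (-1.59, adjusted p = 0.0542), and OASL, at 10.2 and 11.9 against 4.27 and 4.31 CPM (-1.36). Of 15 tested genes in the list of calcium-binding S100 proteins, which also held calretinin (CALB2), 11 lay below 0 (median -0.41). S100P measured 31.9 and 22.2 against 0.838 and 1.02 CPM (-4.85, adjusted p = 0.0706). CALB2 was the 1 member of that list to pass. Of 54 potassium, sodium and calcium channels 32 lay above 0 (median 0.24) and 12 were higher and 3 lower at an unadjusted p under 0.05, while 0 passed in edgeR and 5 in DESeq2. Among the latter were KCNC4 at 20.0 and 22.8 against 47.8 and 65.1 CPM (1.40) and the epithelial sodium channel subunit SCNN1G at 6.42 and 4.79 CPM against 0 in both resistant libraries. Of 35 genes of lipid droplets and triglyceride turnover 21 lay below 0 (median -0.18) and PLIN4 alone passed. The acyl-CoA synthetase ACSL1 measured 57.3 and 56.1 against 14.6 and 19.4 CPM (-1.74, adjusted p = 0.0552).

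By position, fold changes were summarised in 223 autosomal windows of 10 Mb with at least 20 genes of a mean of at least 5 CPM. Their median fold change ran from -0.54 to 0.62, with 10th and 90th percentiles of -0.22 and 0.18. Of these windows 2 lay beyond 0.5 in size. The highest were on chromosome 3 from 150 to 160 Mb (0.62, 27 of 31 genes above 0), on chromosome 3 from 100 to 110 Mb (0.44, 23 of 27) and on chromosome 7 from 30 to 40 Mb (0.40, 24 of 31). The lowest were on chromosome 8 from 100 to 110 Mb (-0.54, 5 of 28 above 0), on chromosome 11 from 50 to 60 Mb (-0.39, 1 of 23) and on chromosome 4 from 180 to 190 Mb (-0.36). The window on chromosome 3 at 150 Mb stood at 0.57 and 0.70 in the 2 resistant libraries, and that on chromosome 8 at -0.45 and -0.62. These windows were picked by a median that rests on the same 2 resistant libraries, so their shared direction adds no support. A stretch noticed only after the values were seen was chromosome 3 from 100 Mb on, where the 9 windows with enough genes had medians between 0.14 and 0.62. Of the autosomal genes past the threshold 1, TP63, had a position in these 9 windows. Some whole chromosomes were shifted as well, among genes of a mean of at least 5 CPM. The lowest autosomal medians were -0.37 on chromosome 21 (105 genes), -0.30 on chromosome 19 (819 genes) and -0.22 on chromosome 6 (628 genes). The highest were 0.13 on chromosome 10 and 0.13 on chromosome 3. For comparison, chromosome X had 25 calls among 588 genes tested (4.25%). Its window from 70 to 80 Mb had a median of 1.34 with all 37 genes above 0, and its 3 windows from 100 to 120 Mb and from 130 to 140 Mb had medians of -0.84 to -0.75. The largest changes there among well expressed genes were EDA at 4.64, HMGN5 at 3.67, SH3BGRL at 2.29, MAGEE1 at 2.11 and CHM at 1.99.

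**Figure D4:**
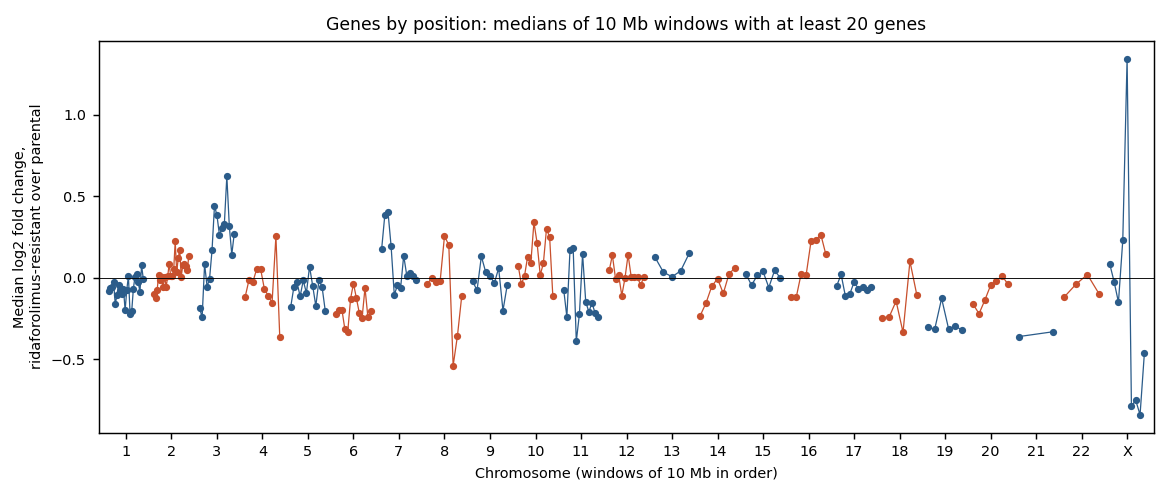
Median log2 fold change of resistant over parental cells in windows of 10 Mb, in order along each chromosome, for windows with at least 20 genes of a mean of at least 5 CPM. Autosomal windows lie between -0.54 and 0.62, with the raised stretch of chromosome 3, and the windows of chromosome X reach from -0.84 to 1.34.

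Neighbours of the 42 autosomal genes past the threshold were described by their medians. Those 42 were picked by their own changes, so smaller values beside them are no result. The same counts were not made around other genes. Of the 42, 37 had at least 3 neighbours of a mean of at least 1 CPM within 500 kb. The neighbours' median had the gene's direction in 26 of these. It reached 0.5 in that direction in 4 and in the opposite direction in 1. TP63 (chromosome 3, 189631416 to 189897279) had neighbours that went the other way: TPRG1 stood at -1.49, P3H2 at -0.91 and CLDN1, a tight-junction protein, at -2.43, none past the threshold. Around LTBP2 (chromosome 14, 74498170 to 74612378, minus strand) the non-coding ENSG00000258976, which lies upstream on the same strand at 74614693 to 74616647, rose from 4.20 and 2.54 to 21.0 and 20.8 CPM (2.64 ± 0.37, adjusted p = 0.0321). PGF, in the same neighbourhood, stood at -2.20 and RPS6KL1 at -1.41, while the median of LTBP2's 23 neighbours was -0.17. CSF3 (chromosome 17, 40015361 to 40017813) and TNS4 (40475828 to 40501597), which both fell, lie within 500 kb of each other. Near NNMT the transcription factor gene ZBTB16 measured 34.6 and 31.0 against 1.98 and 13.8 CPM (-2.05), and near RCN3 the Fc receptor gene FCGRT 3.44 and 1.69 against 0.152 and 0.0731 CPM (-4.41).

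Promoters were read for the called autosomal protein-coding genes from RefSeq sequences of GRCh38.p14 that run from 250 bases before to 50 after a start. Of 36 genes 23 matched. For each gene 1 start was read, which need not be the one in use in these cells. In some genes it lies far inside the GENCODE gene: the sequence of CNTN1 begins at 40827934 and the gene at 40692442. That of NAV3 begins at 77830644 and the gene at 77324641. The motif shares and CpG counts below depend on this choice. Shown are those of LTBP2, which rose, of F3, the 1 gene among the 23 with an AP-1 motif, and of SLC1A7, which came close to 0. Capitals mark matches to the motifs searched, on either strand, and each sequence is written 5′ to 3′ on the strand of its gene, the minus strand in all 3. LTBP2 is at chr14:74612188-74612487, F3 at chr1:94541710-94542009 and SLC1A7 at chr1:53142589-53142888.
LTBP2: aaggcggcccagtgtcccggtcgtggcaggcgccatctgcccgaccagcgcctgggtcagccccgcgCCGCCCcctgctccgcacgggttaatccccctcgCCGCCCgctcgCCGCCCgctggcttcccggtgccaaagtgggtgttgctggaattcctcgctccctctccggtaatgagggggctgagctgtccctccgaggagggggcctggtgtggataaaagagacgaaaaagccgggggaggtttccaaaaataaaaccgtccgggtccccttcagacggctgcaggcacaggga
F3: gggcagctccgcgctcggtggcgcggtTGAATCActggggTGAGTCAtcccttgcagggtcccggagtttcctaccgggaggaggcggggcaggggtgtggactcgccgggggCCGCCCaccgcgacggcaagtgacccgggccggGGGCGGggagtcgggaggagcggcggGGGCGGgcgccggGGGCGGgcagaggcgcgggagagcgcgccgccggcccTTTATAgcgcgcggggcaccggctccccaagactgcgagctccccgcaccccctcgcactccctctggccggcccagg
SLC1A7: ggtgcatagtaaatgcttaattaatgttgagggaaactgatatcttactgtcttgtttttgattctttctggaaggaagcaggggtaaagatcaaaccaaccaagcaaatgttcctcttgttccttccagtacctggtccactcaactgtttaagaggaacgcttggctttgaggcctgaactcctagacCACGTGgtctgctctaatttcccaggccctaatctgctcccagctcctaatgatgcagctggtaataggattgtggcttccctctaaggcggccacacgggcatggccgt
The motifs were AP-1 (TGANTCA), the GC box bound by SP factors (GGGCGG), the E-box CACGTG, the cyclic AMP element TGACGTCA, the TEAD motif GGAATG, the NF-kB motif, the SMAD palindrome GTCTAGAC and the TATA box (TATAAA). LTBP2 held 3 GC boxes, all read on the opposite strand, F3 held 2 AP-1 motifs, 4 GC boxes and a TATA match on the opposite strand, and SLC1A7 held an E-box. The GC box occurred in 5 of the 11 matched promoters of risen genes and in 10 of the 12 of fallen genes, against 44.59% of 27305 promoters of the same length. AP-1 occurred in 0 of 11 and 1 of 12 (7.76% of all), the E-box in 2 of 11 and 2 of 12 (7.43%), the TEAD motif in 2 of 11 and 1 of 12 (14.05%), the cyclic AMP element in 1 of 11, ADAMTS6, and 0 of 12 (1.98%), and the TATA box in 1 of each, TP63 and F3 (11.95%). The NF-kB motif and the SMAD palindrome occurred in none of the 23, against 0.58% and 0.2% of all promoters. The median number of CpG dinucleotides was 9 in promoters of risen genes, 28.5 in those of fallen genes and 14 over all promoters. SLC1A7, with 5, was the lowest of the fallen genes, and the other fallen genes had 13 to 47. Fallen genes without a RefSeq promoter in the table include CSF3, KIF21B and TNS4.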

How the data were processed

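RNA of 6 libraries was measured with Illumina's TruSeq Stranded mRNA kit, per the labels' protocols. The values the authors deposited are raw counts for each Ensembl gene and library, not normalised. Per the submitters' processing notes the tools were DESeq2, HTSeq 0.13.5, STAR 2.7.9a and Trim Galore 0.6.6, with no roles given, and the build GRCh38. The strand setting of the counting, like the annotation release, is not given in the sources used here, so counts of overlapping, antisense and near-identical genes are uncertain.

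Of 69292 IDs 62625 matched a symbol, and the 6667 others took 0.00288% to 0.00399% of the counts. GENCODE 29 gave positions. The table held 28459 IDs with no count in any library. Counts were tested in R 4.3.3 with edgeR 4.0.16 (TMM, filterByExpr by group, glmQLFit and glmQLFTest, two-sided) on a model of the 3 groups over all 6 libraries, with 3 residual degrees of freedom. The threshold was a Benjamini-Hochberg adjusted p under 0.05 over 21223 genes, and an adjusted p with no tool beside it is edgeR's. Alternatives were DESeq2 1.42.0 and limma-voom (limma 3.58.1), other size factors and filters, fits without chromosome X, to only the 2 lines, with a replicate block and without single libraries. Fitting was checked on simulated counts. Intervals cover 95% and counting error only.

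Members, the 49 pathway and 8 marker lists and the naming rule were chosen with earlier results of these data known. The rule named every called autosomal gene of at least 1 CPM whose symbol is no pseudogene, clone, LINC, antisense or divergent-transcript name, up to 5 called genes of chromosome X at 10 CPM or more, called members and up to 4 members of lowest p in each list, the genes just above the threshold, and the genes of the title. The result of 1 pathway list and the values of some genes are not reported here. The stretch of chromosome 3, the whole chromosomes given by their medians, genes named as neighbours and the 4 non-coding calls were picked once their values were known. Replicate numbers were not taken as pairs.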

Additional observations from a re-analysis of the deposited data

How the results depend on the processing

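The 68 calls (18 autosomal genes higher, 24 lower) became 1195 (502 and 499) with no filter on low counts and 575 (224 and 234) with DESeq2. A fit to only the 2 lines gave 127 (37 and 55). Without chromosome X, which held 25 of the 68, there were 37 (14 and 22). The counts stayed within 1.5 times with other size factors, limma-voom or a 5 CPM filter, as did the autosomal counts without chromosome X. Leaving out 1 library gave 1 to 276 calls, with 0 to 93 autosomal genes higher and 1 to 115 lower. Deviations of same-numbered libraries correlated at -0.342 between parental and ridaforolimus-resistant, -0.326 between everolimus- and ridaforolimus-resistant and 0.487 between parental and everolimus-resistant cells over 12103 genes, and the numbers were not taken as pairs. A replicate block gave 28 calls (5 and 12), all among the 68, and a crossed block, added after the data were seen, 814 (312 and 355). No alternative moved the median of all genes by more than 0.0426. Fold changes of 6 genes that did not pass changed sign without 1 library: FN1 ran from -0.0113 to 2.1041, FOXA1 from -0.0924 to 0.7562, XBP1 from -0.5123 to 0.1836, COL1A1 from -0.5984 to 0.5705 (also -0.0474), PMEL from -0.0648 to 0.7051 and FKBP1A from -0.0624 to 0.1286 (also -0.0524). For these and the counts above the cause was not tested. At this depth rare genes such as KRT6A rest on few counts.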

Other observations

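Genes just above the threshold, which had adjusted p-values of 0.0505 to 0.0524 in edgeR's test, included genes of the matrix, of transcription and of signalling. Of the 5 lowest p-values on the autosomes in each direction, TIMP4 and PGF are given above. THSD4, a matrix protein related to the ADAMTS family, measured 202 and 164 CPM in parental and 51.8 and 52.5 CPM in resistant libraries (-1.81). ETS2, a transcription factor downstream of RAS signalling, measured 76.9 and 64.1 against 31.6 and 26.1 CPM (-1.29), and the retinol dehydrogenase DHRS9 4.35 and 2.82 against 0.0762 and 0.292 CPM (-4.20). On the other side stood the channel protein PANX2, at 10.0 and 7.54 against 24.8 and 31.6 CPM (1.69), LDLRAD4, which dampens TGF-beta signalling, at 1.68 and 1.34 against 6.56 and 7.23 CPM (2.19), ARMH4 at 2.67 and 3.59 against 13.3 and 17.1 CPM (2.27), the B-cell lectin CD22 at 26.0 and 19.7 against 96.5 and 59.0 CPM (1.77), and the non-coding ENSG00000249743. For each of these the libraries of the lines did not overlap, as was the case for 49.4% of all genes tested. Since they were picked by low p-values, this adds no support.

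Of the lists not described above, those given here had 0 genes past the threshold in edgeR. Of 42 axon guidance ligands and receptors 20 lay above 0 (median -0.04). SEMA3A, a secreted repellent of growing axons, measured 19.9 and 26.8 against 5.95 and 8.47 CPM (-1.70, adjusted p = 0.0704), and SLIT2, another repellent, 15.2 and 9.58 against 33.0 and 36.7 CPM (1.49, adjusted p = 0.0927). In this list 0 genes passed in edgeR and limma-voom, 5 were higher and 6 lower at an unadjusted p under 0.05, and DESeq2 called 1 and 4. Of 15 genes in the list of hyaluronan metabolism and CD44, 9 lay above 0 and 6 below (median 0.26). At an unadjusted p under 0.05 there were 3 higher and 1 lower, and DESeq2 called 2 and 1. The lower gene was HAS2, a hyaluronan synthase, at 3.90 and 5.42 against 0.838 and 1.24 CPM (-2.15, adjusted p = 0.131). Of 31 NRF2 targets and aldo-keto reductases 22 lay above 0 (median 0.22), 8 at an unadjusted p under 0.05, with 0 past the threshold in edgeR and limma-voom and 2 in DESeq2. Of 29 cytosolic heat-shock chaperones 12 lay above 0 and 17 below (median -0.04). At an unadjusted p under 0.05 there were 3 higher and 1 lower, and DESeq2 called 1 and 0. The small chaperone HSPB8 measured 5.35 and 4.37 against 14.3 and 15.6 CPM (1.62, adjusted p = 0.0616). Of 30 genes of endoplasmic reticulum chaperones and the unfolded protein response 25 lay below 0 (median -0.30). At an unadjusted p under 0.05 there were 2 higher and 7 lower. In edgeR and limma-voom 0 passed and in DESeq2 1, HYOU1, at 356 and 257 against 157 and 135 CPM (-1.07).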
